A study of Homo sapiens with 7 samples.

Results

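At 2194 of the 10391 gene TSSs called in T47D/A1-2 cells, an upstream antisense TSS (uaTSS) was called 81 to 200 nt upstream of the gene TSS. These 2194 uaTSSs made up 39.8% of the 5519 uaTSSs called, and 21.1% of all gene TSSs carried one. They were chosen by their distance alone, read on the strand of the gene between each uaTSS and the gene TSS with the same identifier. The distances are therefore a description of how the members were selected, and the uaTSSs set beside them were 576 closer ones (1 to 80 nt), 1802 farther ones (over 200 and up to 400 nt) and 947 distant ones (over 400 and up to 1000 nt). T47D/A1-2 is 1 derived line of the T47D luminal breast cancer line. It overexpresses the rat glucocorticoid receptor and carries an integrated MMTV-luciferase reporter, and the sample labels name it only T-47D. Every sample came from cells under a single condition, grown with 10% serum and kept in 5% charcoal-stripped serum for at least 24 hours, so no treatment was compared. TSS calls came from 1 Start-seq library (replicate 1), which sequences short capped nuclear RNA so that the 5’ end of each read marks a TSS. Steady-state mRNA was given as 1 FPKM value per gene (fragments normalized to transcript length in kilobases and to the mapped fragments of the library) over 3 RNA-seq libraries merged by the authors.

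The deposited calls hold no read counts and the FPKM table no replicate values, so no difference below could be tested against replicate error. Shares are given with exact Clopper-Pearson 95% intervals and medians with exact rank intervals at 95%, which cover the counting of calls in 1 library. Luminal markers fitted the labelled cells, with FPKM of 1142 for KRT8, 936 for KRT19, 360 for GATA3, 113 for FOXA1, 68.5 for PGR and 44.1 for ESR1. The basal keratins KRT5 and KRT14 were listed at 0, and FPKM was 0.864 for VIM, 0.128 for CDH2, 0.0208 for the leukocyte gene PTPRC and 0.00291 for the endothelial gene PECAM1.

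Most active mammalian promoters are divergent. RNA polymerase II starts on the gene strand to make mRNA and, from a separate core promoter a short way upstream, on the opposite strand to make an RNA that usually ends early and is degraded by the nuclear exosome. The DNA between the paired TSSs is commonly depleted of nucleosomes and is where sequence-specific activators such as SP1, NF-Y, NRF1 and the ETS proteins bind. A downstream antisense TSS (daTSS) is a further start on the antisense strand inside the gene, called here up to 2000 nt from the gene TSS.

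The stretches between uaTSS and gene TSS are shown for 4 members, because the letters lying between the paired starts are what the results on motifs below rest on. TRIM28, RPL29 and TMSB10 had the highest FPKM among members with no annotated exon in the stretch, each in its own 30-nt step of the distance range. PCNA was added after its values were seen, as an example that holds both GC boxes and CCAAT boxes. Each is GRCh37 sequence on the strand of the gene, 5′ to 3′, from the uaTSS base to the gene TSS base, with capitals for matches to the GC box (GGGCGG), the CCAAT box (CCAAT) or the ETS core (CCGGAAG) on either strand. TRIM28 is a transcriptional corepressor, RPL29 a protein of the large ribosomal subunit, TMSB10 an actin-binding thymosin, and PCNA the sliding clamp of DNA replication.
TRIM28, chr19:59055346-59055430, plus strand: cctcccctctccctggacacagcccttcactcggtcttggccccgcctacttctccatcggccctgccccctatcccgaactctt
RPL29, chr3:52029951-52030084, minus strand: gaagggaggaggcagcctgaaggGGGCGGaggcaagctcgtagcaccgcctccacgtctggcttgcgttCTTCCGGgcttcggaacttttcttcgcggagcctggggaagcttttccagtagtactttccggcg
TMSB10, chr2:85132588-85132780, plus strand: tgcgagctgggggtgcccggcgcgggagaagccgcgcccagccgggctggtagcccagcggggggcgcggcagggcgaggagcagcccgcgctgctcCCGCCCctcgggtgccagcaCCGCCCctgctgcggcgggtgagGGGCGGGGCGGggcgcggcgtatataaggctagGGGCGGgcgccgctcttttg
PCNA, chr20:5100604-5100801, minus strand: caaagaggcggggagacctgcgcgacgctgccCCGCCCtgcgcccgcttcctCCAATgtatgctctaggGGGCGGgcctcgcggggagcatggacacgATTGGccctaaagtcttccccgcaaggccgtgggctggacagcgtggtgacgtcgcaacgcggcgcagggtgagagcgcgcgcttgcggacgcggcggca

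The uaTSS of TRIM28 lay 84 nt from its gene TSS, and its stretch held none of the 3 motifs. In RPL29 (133 nt) a GC box sat 105 to 110 nt upstream of the gene TSS and an ETS core 58 to 64 nt upstream. TMSB10 (192 nt) held 5 GC boxes, of which 2 overlap by a base, and no CCAAT box. PCNA (197 nt) held 2 CCAAT boxes in opposite orientation, the nearer at 95 to 99 nt, and 2 GC boxes.

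Within the range, distances averaged 140.9 nt (SD 32.6 nt) with quartiles of 114 and 168 nt. In 10-nt bins the number of uaTSSs rose from 132 at 81 to 90 nt to 217 in the bin ending at 130 nt and came down to 147 in the last bin, which ends at 200 nt, which makes this range the crest of the distance distribution. Neither bound falls at a gap. There were 13 uaTSSs at 80 nt, 4 at 81 nt, 18 at 200 nt and 17 at the next position out. At these positions the gene with the highest FPKM was NDUFA13 (230.2) at 80 nt, PASD1 (13.8) at 81 nt, CTNNB1 (115) at 200 nt and PTMS (160.5) just beyond. The median FPKM of the genes at these 4 distances was 15.96, 11.3, 16.9 and 25.1, in the same order. No uaTSS position was shared by 2 members. The members lay on 23 chromosomes and belonged to 2172 genes, with 38 members sharing a gene symbol with another, such as TFAP2A with uaTSSs 151 and 93 nt upstream of separate gene TSSs. The assigned gene was protein-coding for 2184 of the 2194 gene TSSs (99.5%), against 99.3% of all gene TSSs. These shares follow from the method, since the authors searched around annotated mRNA starts and the assignment took coding starts first.

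**Figure D1:**
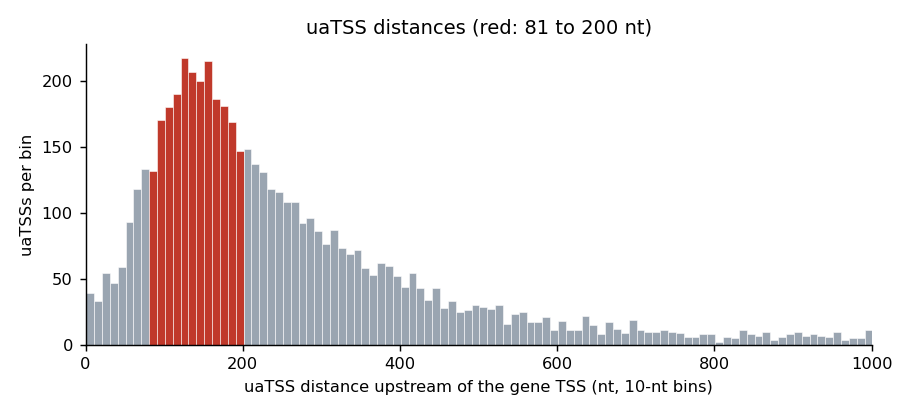
Number of uaTSSs (y axis) in each 10-nt bin of distance upstream of the gene TSS (x axis, nt), for all 5519 uaTSSs of 1 Start-seq library, with the 2194 members in red. The tallest bin, 217 uaTSSs up to 130 nt, lies inside the red range, and both bounds cut through a continuous distribution.

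The DNA between the paired starts was dense in activator motifs. The GC box, bound by SP-family proteins, occurred 9.72 times per kb between uaTSS and gene TSS in the members. It occurred 2.75 times per kb in the 100 nt beyond the uaTSS and 3.18 times per kb in the 100 nt downstream of the gene TSS. For the CCAAT box, bound by NF-Y, the corresponding densities were 2.20, 0.76 and 0.54 per kb. Between the starts the ETS core reached 1.75 per kb, against 0.33 beyond the uaTSS and 0.48 downstream of the gene TSS. The NRF1 motif (GCATGCGC), of a factor known for driving nuclear genes of mitochondrial function, reached 0.68 per kb between the starts, against 0.09 and 0.08. Each of the 4 motifs was thus denser between the starts than on either side. The YY1 motif (AAGATGGC) had another place, with 0.15 per kb between the starts, 0.08 beyond the uaTSS and 0.43 in the 100 nt downstream of the gene TSS.

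Counted from either start, the motifs kept a similar spacing. Of the CCAAT boxes between the starts of members, 70.1% lay 40 to 110 nt from the gene TSS and 66.8% lay 40 to 110 nt from the uaTSS. Their median position was 77 nt from the gene TSS and 74.5 nt from the uaTSS. The box pointed along the gene strand 329 times and along the uaTSS strand 337 times. GC boxes had medians of 73.5 and 67.5 nt from the gene TSS and uaTSS, with 1594 on the gene strand and 1325 on the uaTSS strand. ETS cores lay nearer to the gene TSS, at a median of 54 nt against 76 nt from the uaTSS. Since the starts are 81 to 200 nt apart by selection, a motif between them can be far from neither, and these positions are a description.

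**Figure D2:**
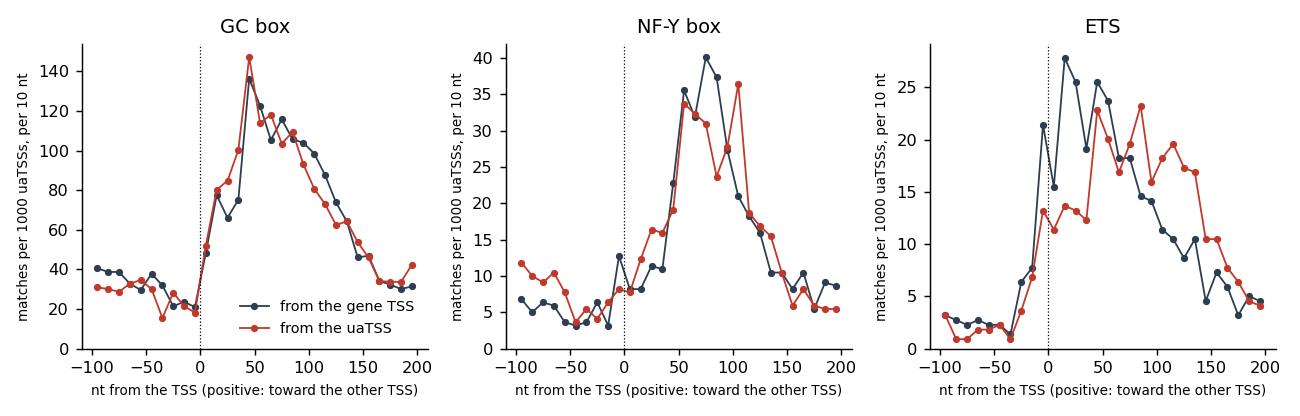
Matches per 1000 member uaTSSs in 10-nt bins (y axis) against distance from the gene TSS (dark) or from the uaTSS (red) in nt (x axis, positive toward the other start), for the GC box, the CCAAT box (titled NF-Y box) and the ETS core. GC boxes peak 45 nt from either start, at 136 per 1000 from the gene TSS and 147 from the uaTSS, and GC boxes are sparse on the outer side of both. ETS cores are as frequent just downstream of the gene TSS, at 21.4 per 1000 in the first outer bin, as in several bins between the starts.

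Between the starts, the density of GC boxes was 8.502 per kb for closer, 9.16 for farther and 7.07 for distant uaTSSs. The 9.72 of members was the highest of the 4 values. No interval was computed for these densities, and that of closer uaTSSs rests on 231 GC boxes, so the order of close values is uncertain. CCAAT boxes had densities of 0.87, 2.89 and 2.02 per kb, with the 2.20 of members between closer and farther uaTSSs. Per kb, ETS cores thinned out with distance, from 2.63 for closer uaTSSs through 1.75 in members to 0.83 for farther and 0.52 for distant ones. The NRF1 motif went likewise from 0.81 through 0.68 to 0.38 and 0.17. A density divides by the length of the stretch, which is the distance that defines the groups. By count, 70 ETS cores lay between the starts of 576 closer uaTSSs and 523 in 2194 members. There were 417 for 1802 farther and 291 for 947 distant uaTSSs, so per uaTSS they did not thin out from closer to distant ones.

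Motifs were also counted on both strands in a fixed window, the 200 nt upstream of every gene TSS. This window lies wholly between the starts for farther and distant uaTSSs, whereas for closer uaTSSs, and less so for members, it takes in DNA beyond the uaTSS, where motifs were sparser. Its shares therefore depend on the distance that defines the groups as well as on how dense the motifs are. None of the motifs searched contains another. In the members 69.5% of gene TSSs had a GC box (67.5% to 71.4%), against 51.4% of closer, 75.5% of farther and 73.8% of distant uaTSSs and 66.1% of all gene TSSs. A CCAAT box was present at 25.8% of members (23.9% to 27.6%), against 15.6%, 38.5% and 28.6% of closer, farther and distant uaTSSs and 29.7% of all gene TSSs. In this window the members stood between the closer and the farther uaTSSs for both boxes, with intervals that overlapped neither. Between the starts their GC box density had the highest value, but without an interval.

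ETS cores followed another order in the fixed window than between the starts. Of the members 22.3% had an ETS core (20.6% to 24.1%), against 18.9% of closer (15.8% to 22.4%), 14.9% of farther (13.3% to 16.6%) and 10.9% of distant uaTSSs and 15.6% of all gene TSSs. The NRF1 motif was found at 6.52% of members (5.52% to 7.63%), against 4.51%, 4.55% and 2.75% of closer, farther and distant uaTSSs and 4.72% overall. For the cyclic AMP response element (CRE, TGACGTCA) the share was 3.97% in the members, 3.99% in closer, 2.55% in farther and 1.58% in distant uaTSSs. The intervals of members and closer uaTSSs overlapped for the ETS, NRF1 and CRE motifs. Against farther uaTSSs they were apart for ETS, and for NRF1 and CRE they overlapped slightly. A TATA box (TATAAA) was rare, at 2.01% of members, 2.94% of farther uaTSSs and 4.29% of gene TSSs without a uaTSS. The E-box (CACGTG), bound by MYC and related factors, was found at 8.16% of members and 8.49% of farther uaTSSs, the ZBTB33-type motif (TCTCGCGA) at 2.69% and 3.16%, and the YY1 motif at 2.60% and 2.83%. With gene TSSs that had no other called gene TSS within 5000 nt, the GC box and CCAAT shares of members were 69.9% and 26.0%, and the ETS share, for which this alternative was chosen after seeing the data, was 22.9%.

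CCAAT boxes became more frequent with distance inside the range as well. The share of promoters with a CCAAT box in the 200 nt upstream was 12.9% (7.68% to 19.8%) for uaTSSs at 81 to 90 nt, 18.4% in the bin ending at 130 nt, 32.8% in that ending at 170 nt and 40.8% (32.8% to 49.2%) in the last. In the 100 nt nearest to the gene TSS, a window that most members span, the share went from 6.82% in the first bin to 31.3% in the last. Members with a CCAAT box had a median distance of 152 nt (quartiles 129 and 176 nt) and those without one of 135 nt (110 and 164 nt). The GC box share went from 57.6% to 80.95% between the same end bins over 200 nt, and from 50% to 61.2% over 100 nt, where the bins between had no direction, with a lowest value of 49.2% in the bin ending at 180 nt. ETS cores went the other way over 100 nt, from 24.2% in the first bin to 10.9% in the last, with uneven values between. Over 200 nt the ETS share was highest at 91 to 100 nt (28.8%) and lowest in the bin ending at 180 nt (17.7%), and these intervals overlapped.

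**Figure D3:**
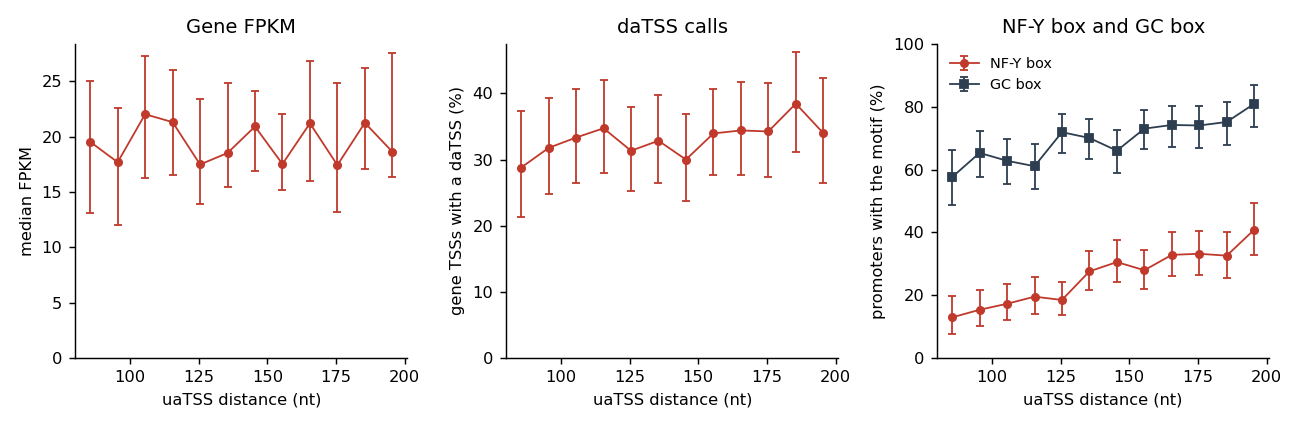
Members in 10-nt bins of uaTSS distance (x axes, nt): median FPKM of the gene with its exact rank interval, share of gene TSSs with a daTSS (%), and share of promoters with a GC box or a CCAAT box (labelled NF-Y box) in the 200 nt upstream (%), with exact 95% intervals as bars. The FPKM medians stay between 17.4 and 22.0, and the CCAAT share goes from 12.9% in the first bin to 40.8% in the last.

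GC content fell off beyond the uaTSS, but not just downstream of the gene TSS. It averaged 69.0% between the paired starts of members. Around the uaTSS it was 69.0% in the 100 nt toward the gene, 61.9% in the 100 nt beyond and 56.4% at 101 to 200 nt beyond. Over the 200 nt upstream of the gene TSS, GC content averaged 67.4% (SD 8.17 over 2194 gene TSSs), against 64.0% for closer, 69.3% for farther and 68.9% for distant uaTSSs. In 20-nt bins the members had 70.5% GC centered 50 nt upstream of the gene TSS, 65.5% at 150 nt, 58.1% at 250 nt and 55.2% at 350 nt. Downstream of the gene TSS it was 68.3% at 50 nt, 67.7% at 150 nt and 66.6% at 250 nt. The median ratio of observed to expected CpG in the 200 nt was 0.88 in members and 0.90 for farther uaTSSs. Among members distance and GC content had a Spearman rho of 0.12 and a Pearson r of 0.12 (n = 2194 gene TSSs of 1 library), and both GC content and the GC box share were lowest for closer uaTSSs. The part of GC content in the GC box share was not tested.

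**Figure D4:**
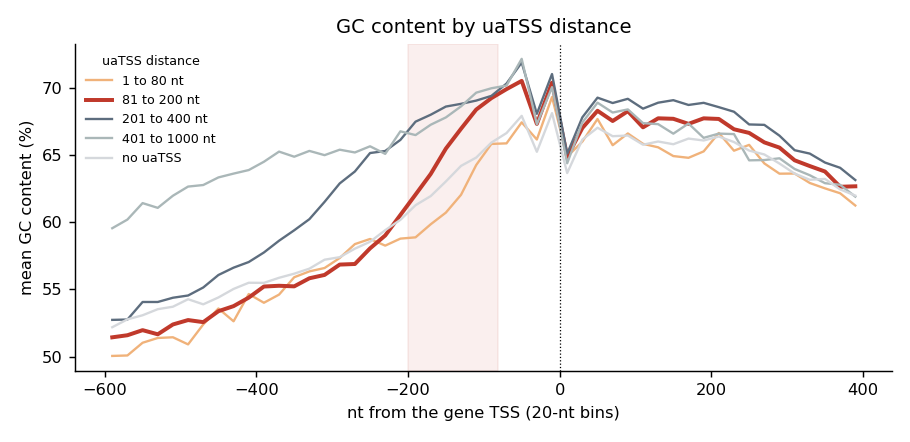
Mean GC content (y axis, %) in 20-nt bins against position relative to the gene TSS (x axis, nt, upstream negative), by uaTSS distance range, with the range that holds the uaTSSs of members shaded. In members (red) GC content climbs through the shaded range, from 60.5% at 210 nt upstream to 69.2% at 90 nt upstream.

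Most uaTSSs and most gene TSSs of members carried the initiator pattern, a pyrimidine just before and a purine at the first transcribed base. This pattern is the most common core promoter element in animals. At member uaTSSs 65.0% had this pattern (63.0% to 67.0%), against 21.5% at a position 50 nt downstream on the same strand. The share was 62.0% for closer, 65.3% for farther and 64.5% for distant uaTSSs. At the gene TSSs of members it was 65.2%. Both starts had the pattern at 923 members (42.1%), and the product of the single shares was 42.4%. The pair CA was found at 30.9% of member uaTSSs and 29.7% of their gene TSSs. A TATA-like element (TATA followed by A or T) starting 24 to 35 nt upstream of the uaTSS was found at 11 members (0.501%), 0 of the 576 closer uaTSSs (at most 0.638% by the exact interval) and 14 farther ones (0.777%). For 2 of the members shown above, the 21 nt centered on the uaTSS are given next on the antisense strand of GRCh37, 5′ to 3′, with the base before the call and the called base in capitals.
TMSB10, chr2:85132578-85132598, minus strand: cccagctcgCAgtgtgcccag
PCNA, chr20:5100791-5100811, plus strand: ccgcctcttTGactcctgaac
The uaTSS of TMSB10 was called at CA and that of PCNA at TG, and both fit the initiator pattern. The uaTSS of TRIM28 was called at GG and that of RPL29 at TC, and neither fits it.

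Genes of members were expressed at about the level of other genes with a uaTSS. Their median FPKM was 18.96 (17.9 to 20.8, quartiles 8.23 and 44.8, n = 2182 with a value), against 19.8 (18.9 to 20.9) for genes with a uaTSS at any other distance. On the scale of log2(FPKM + 0.1), the median of members minus that of these genes was -0.06. The medians were 17.1 for closer, 21.5 (19.9 to 23.4) for farther and 19.1 for distant uaTSSs, and 13.7 (13.0 to 14.5) where no uaTSS was called. FPKM reached at least 1 for 97.3% of members (96.5% to 97.9%), against 96.2% of other uaTSS genes (95.4% to 96.8%). The share was 93.9% over all gene TSSs. FPKM was at least 100 for 218 members (9.99%), against 10.4% of other uaTSS genes and 8.67% of all gene TSSs. Across members, distance and FPKM had a Spearman rho of 0.02 and a Pearson r of 0.04 (n = 2182). The medians of the 10-nt bins ran from 17.4 to 22.0 with no direction. Members with an ETS core had a median FPKM of 23.0 (19.8 to 26.4, n = 489) and those without one 17.8 (16.7 to 19.6, n = 1693). For the CCAAT box the medians were 17.5 (15.4 to 21.1) with it and 19.5 (18.2 to 21.5) without it.

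Ribosomal protein genes headed the members by FPKM. The highest values were 1135 for RPL8 (uaTSS at 173 nt), 904 for RPL30 (134 nt), 878 for the cytoplasmic actin gene ACTB (148 nt), 737 for RPL11 (149 nt), 652 for CRIP1 (170 nt), which encodes a LIM-domain protein, and 554 for RPS21 (127 nt). FPKM of ribosomal protein genes and of ACTB is uncertain in so far as reads are shared with their processed pseudogenes. At the other end were the readthrough gene RBAK-RBAKDN at 1.27e-25, which overlaps the gene RBAK, SLC25A53, a mitochondrial carrier gene, at 0.0124, and ACTN3, the actinin of fast muscle fibres, at 0.0226. The uaTSS assigned to ACTN3 lay 3 nt from the annotated start of ZDHHC24 on the other strand, whose FPKM was 13.4. The histone gene H4C3 was listed at 0, in RNA-seq libraries made with an mRNA kit.

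Among cytosolic ribosomal protein genes, 32 of 77 gene TSSs were members (41.6%, 30.4% to 53.4%), against 21.1% of all gene TSSs. These 32 were 58.2% of the 55 that had any uaTSS, against 39.8% overall. Their median distance was 134.5 nt and their median FPKM 191. An ETS core was present upstream of 12 of the 32 and a CCAAT box upstream of 9. Over all members the shares were 22.3% for the ETS core and 25.8% for the CCAAT box. Ribosomal protein mRNAs typically begin with a C within a pyrimidine tract, which couples their translation to growth signals. Of the 32 gene TSSs, 25 were called at a C (78.1%), against 15.04% of all members, while 2 of the 32 uaTSSs were (6.25%), against 15.8%. The mitochondrial ribosome gave 22 members of 73 gene TSSs (30.1%, 19.9% to 42.0%), led by MRPL51 (FPKM 209, 117 nt) and MRPL43 (126, 95 nt), with an ETS core at 7 and a CCAAT box at 1. Subunits of oxidative phosphorylation gave 21 of 83 (25.3%), led by the ATP synthase genes ATP5ME (364, 193 nt) and ATP5IF1 (336, 168 nt).

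Splicing factors gave 22 members of 67 gene TSSs (32.8%, 21.8% to 45.4%). Of these 22, 11 had an ETS core, against 22.3% of all members. The highest FPKM there was 369 for SNRPB (182 nt), a core protein of spliceosomal snRNPs, and 147 for SF3B4 (137 nt). Aminoacyl-tRNA synthetases gave 11 of 32 (34.4%), led by RARS1 and GARS1, and translation initiation factors 13 of 50 (26.0%), led by EIF4G1 (305, 173 nt) and EIF3E (221, 122 nt). The smaller lists gave 9 of 34 for proteasome subunits (PSMB4, PSMD4), 17 of 68 for RNA polymerase II factors and Mediator (TAF10, MED13L), 7 of 39 for DNA replication (PCNA, RFC2), 10 of 42 for RAB GTPases (RAB7A, RAB13) and 4 of 14 for the RNA exosome (EXOSC4, EXOSC10). The intervals of all lists except the cytosolic ribosomal proteins, the splicing factors, the ZNF genes and the clustered histones included 21.1%. The ZNF interval began at 21.2%, and no allowance was made for the number of lists. Of gene TSSs with any uaTSS, members were 44.9% for splicing factors, 44.6% for ZNF genes and 28.6% for clustered histones. These shares compare with 39.8% over all uaTSSs.

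Zinc finger genes of the ZNF series, many of them KRAB repressors, gave 99 members of 389 gene TSSs (25.4%, 21.2% to 30.1%). Their median FPKM was 4.70, below the 18.96 of all members. A CCAAT box was found upstream of 45 of these 99 and an ETS core upstream of 32, against 25.8% and 22.3% of all members. The highest FPKM was 152 for ZNF385A (179 nt) and 113 for ZNF207 (106 nt). Clustered histone genes were seldom members, at 4 of 49 (8.16%, 2.27% to 19.6%), led by H1-2 (42.6, 154 nt) and H4C8 (6.62, 147 nt), and 35 of the 49 had no uaTSS. Heat shock and DNAJ genes gave 7 of 57 (12.3%, 5.08% to 23.7%), including DNAJA1 and DNAJC7, and 10 had distant uaTSSs.

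Of the breast luminal and steroid receptor list, 5 of 27 gene TSSs were members (18.5%, 6.30% to 38.1%). They were the E-cadherin gene CDH1 (FPKM 229.9, 152 nt), the receptor tyrosine kinase gene ERBB3 (259, 155 nt), the AP-2 factor genes TFAP2A (76.3, with 2 gene TSSs) and TFAP2C (31.5, 186 nt). Of the 24 gene TSSs of BAF chromatin remodelling subunits, 4 were members: BCL7A (13.0, 144 nt), BICRA (1.90, 139 nt), DPF2 (63.0, 99 nt) and DPF3 (0.105, 179 nt).

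A daTSS was called at 728 of the 2194 members (33.2%, 31.2% to 35.2%), against 28.4% of all gene TSSs and 32.9% of gene TSSs with a uaTSS. The members were therefore near the background of uaTSS genes. The share was 28.3% (24.7% to 32.2%) for closer, 34.5% (32.3% to 36.7%) for farther and 31.996% (29.0% to 35.1%) for distant uaTSSs, and 23.4% without a uaTSS. Inside the range the bins ran from 28.8% at 81 to 90 nt to 38.5% in the bin ending at 190 nt, with overlapping intervals. The share was 31.7% with a CCAAT box and 33.7% without one, and 34.9% with an ETS core and 32.7% without one.

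Where a member had a daTSS, it lay a median of 460.5 nt downstream (442 to 486 nt, quartiles 319 and 716.5 nt). For the other uaTSS genes the median was 510 nt (483 to 546 nt), with 427 nt (382 to 493 nt) for closer, 539 nt (495 to 586 nt) for farther and 508 nt (443 to 565 nt) for distant uaTSSs. Of the 728 daTSSs, 230 lay over 300 and up to 500 nt downstream (31.6%, 28.2% to 35.1%), against 24.3% (21.8% to 26.9%) for other uaTSS genes. Beyond 1000 nt were 9.75% (7.70% to 12.1%) of member daTSSs and 16.01% (13.9% to 18.3%) of the others. Between these, from 500 to 1000 nt, the shares were 35.2% and 34.9%. For closer uaTSSs the share beyond 1000 nt was 9.82% (5.72% to 15.5%), like that of members. It was 15.5% for farther and 20.5% for distant ones. Over 300 and up to 500 nt the share was 25.8% (19.2% to 33.2%) for closer uaTSSs, an interval that overlaps that of members. There it was 24.8% for farther and 22.4% for distant ones. Among members the uaTSS and daTSS distances had a Spearman rho of 0.07 and a Pearson r of 0.05 (n = 728). Median daTSS distances of the 10-nt bins lay between 411 and 509 nt, except for 650.5 nt in the bin ending at 150 nt (60 daTSSs). The shortest daTSS distances were 1 nt at TBC1D2 and 13 nt at MED12, the Mediator kinase-module gene, and the longest 1905 nt at NAA20 and 1990 nt at ZBTB25. Among the genes above, RPL8 had a daTSS at 281 nt, ACTB at 820 nt and TMSB10 at 602 nt, whereas none was called at RPL30, RPL11, CRIP1, RPS21, CDH1 or PCNA.

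For 499 members (22.7%) an annotated transcript started within 100 nt of the uaTSS on its strand, against 24.3% of closer, 19.5% of farther and 15.2% of distant uaTSSs. The annotated gene was a lncRNA for 290, protein-coding for 191 and of another type for the rest. Of all member uaTSSs, 0 lay within 100 nt of a called gene TSS on their strand, against 17 of the closer ones. By annotation alone, 191 uaTSSs thus lay near the start of a divergently transcribed coding gene. Examples are MRPL51, whose uaTSS lay 10 nt from the start of the condensin gene NCAPD2 (FPKM 43.0), DNAJA1 at the start of the DNA repair gene APTX (26.3), and ZBTB25 at the start of ZBTB1 (15.9). For MRPL43 the uaTSS lay 2 nt from the start of TWNK, the mitochondrial DNA helicase, and for ATP5ME 41 nt from MYL5 (6.34). Of 177 such partners with a value, 159 had an FPKM of at least 1, a lower share than the 97.3% of members and 93.9% of all gene TSSs. The median FPKM of these 177 partners was 21.7 (quartiles 6.36 and 43.0). The member gene had the higher FPKM in 99 of these 177 pairs. Among the members with the highest FPKM, RPL30 and RPS21 had uaTSSs 26 and 23 nt from annotated lncRNA starts, and TMEM106C (382) one 27 nt from a transcript of unassigned type.

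The authors dropped any daTSS within 1000 nt of an annotated start on its strand. How many were dropped is not known from the deposited calls. The rule can remove daTSSs of members whose uaTSS lies beside a coding start. Their daTSS share, 36 of 191 (18.8%), is therefore no measure of antisense initiation, and it enters the 33.2% given above. Beside a lncRNA start 97 of 290 members had a daTSS (33.4%, 28.0% to 39.2%), and with no annotated start within 100 nt 588 of 1695 (34.7%, 32.4% to 37.0%). Median FPKM was 21.9 (17.0 to 29.7) beside a coding start, 22.0 (18.1 to 25.1) beside a lncRNA start and 18.4 (17.4 to 20.0) with neither. ETS cores were upstream of 24.1%, 28.6% and 20.9% of these members, and CCAAT boxes upstream of 19.4%, 24.8% and 26.6%.

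By position, 41.6% of member uaTSSs lay outside annotated genes, and 22.2% in an exon and 8.43% in an intron of a gene on the uaTSS strand. A uaTSS was placed on the gene strand only where no gene on its own strand covered it, with exons taken before introns. So counted, 10.8% of member uaTSSs lay in an exon and 17.0% in an intron on the gene strand. Counted in the same order, 23.8% of closer uaTSSs lay in an exon on the gene strand (20.4% to 27.5%), above the interval of members (9.53% to 12.2%). Of the member gene TSSs, 84.1% were within 50 nt of an annotated start of the assigned gene, against 73.9% for the other uaTSS genes and 71.4% without a uaTSS. A further called gene TSS lay on the opposite strand within 1000 nt upstream of 96 members (4.38%), against 10.8% for closer and 1.89% for farther uaTSSs. Where no uaTSS was called the share was 20.6%. Of the members, 85.2% had no other called gene TSS within 5000 nt.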

How the data were processed

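The authors removed low-quality reads and adapters (cutadapt 1.2.1), aligned Start-seq reads of replicate 1 to hg19 (Bowtie 0.12.8), and called a uaTSS or daTSS at the antisense position with most 5’ ends, with at least 5 reads, up to 1000 nt upstream or 2000 nt downstream of each gene TSS. The deposited calls are 3 lists of single positions with a score of 0, so depth is unknown. The deposited FPKM values were estimated by the authors with Cufflinks 2.2.1 after TopHat2 2.0.4 alignment, de-duplication with Picard 1.118 and merging of 3 replicates. The table held 0 columns of per-sample values and 28 symbols turned into dates. Not used here were FAIRE-seq, MNase-seq and the second Start-seq replicate.

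The members and gene lists were chosen with earlier results of these data known. Lists were joined by identifier. Each gene TSS took the GENCODE 44 gene (lifted to GRCh37) with the nearest protein-coding start within 1000 nt on its strand. Where no coding start was there, starts of any gene type were used. Genes with a symbol were taken before those with only an identifier. FPKM was joined by current or older symbol at the same locus for 10313 gene TSSs, leaving 12 members without a value. Sequence came from GRCh37, whose chromosomes match hg19. Motifs were exact letters on both strands, counting overlapping matches. Python 3.11.15, pandas 2.3.3, scipy 1.17.1, pysam 0.24.0 and matplotlib 3.10.9 were used, and the distance, motif and interval functions were tested on simulated data. Named genes are the 6 highest and 3 lowest by FPKM, the highest at each bound, the 2 shortest and 2 longest daTSS distances, all members of the luminal and BAF lists, the 2 highest of every other list, the sequences shown, and the 3 highest with a uaTSS near an annotated start. The sequence chosen for 1 step of the distance range is not reported here. The gene listed at 0, the sequence of PCNA, and partner genes were chosen after their values were seen. Alternatives covered neighbouring gene TSSs, gene TSSs per symbol, windows, distance bounds, FPKM minimum and pseudocount.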

Additional observations from a re-analysis of the deposited data

How the results depend on the processing

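No paired analysis was possible because the results come from no test. Of 35 alternatives, 21 left a value within its interval or spread and 14 moved it. Only the difference in log2 FPKM could have changed sign, and it did not, since the other values cannot be negative. The share of members with a daTSS was 35.8% without neighbouring gene TSSs within 5000 nt and 29.9% with daTSSs up to 1000 nt only, which also gave a median daTSS distance of 433 nt. Mean GC content was 69.5% over 100 nt and 69.0% from uaTSS to gene TSS. GC box shares for the same windows were 54.6% and 65.2%, and CCAAT box shares 19.0% and 23.0%. The initiator share was 73.7% when a base to either side of the call was allowed and 30.9% for CA alone. Annotated starts on the uaTSS strand were found for 18.6% within 50 nt, 26.5% within 250 nt and 20.1% without neighbouring gene TSSs. Shorter windows and narrower patterns can only hold fewer matches. Depth per call is unknown, and no alternative could leave out a library, since all calls come from 1.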
